A study of Saccharomyces cerevisiae with 20 samples.

Results

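Non-quiescent cells of an ageing yeast culture were followed by comparing their libraries of days 24, 34 and 44 (late) with their libraries of days 1, 2 and 3 (early). These are 6 of the 20 barcode libraries of the series, and they were chosen by the fraction and the day in their labels. All came from 1 pooled culture of budding yeast strains derived from JDY86, kept in rich YPD medium without a change of medium. Each strain had histone H3 or H4 altered by design, by substitution or by deletion, and was tagged with 2 DNA barcodes, called up and down. In all strains, the wild type included, 1 of the yeast's H3 and H4 gene pairs (hht1-hhf1) was replaced by the NatMX4 resistance marker, so that the engineered pair at hht2-hhf2 was the only source of both histones, and the pool had been selected with nourseothricin. A Percoll density gradient separated the 2 fractions, each of which gave 1 library per day. The late and the early side therefore hold 3 libraries each, taken one after the other from the same flask. The libraries are not separate cultures, and p-values measure only the spread between them. The methods describe the recovery of the quiescent fraction, the counts hold no marker of either fraction, and the name of the non-quiescent fraction rests on the labels alone.

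When yeast exhausts its glucose, part of the population becomes quiescent, which are dense cells, mostly unbudded, that stay viable for long, while the rest remains lighter and loses viability sooner. Histones H3 and H4 form the centre of the nucleosome around which DNA is wrapped. Their N-terminal tails reach out of it and carry lysines that are acetylated or methylated, while 3 helices joined by 2 loops fold each histone into its partner. In the library, glutamine (Q) stands in for an acetylated lysine, arginine (R) for an unmodified one, alanine (A) removes the side chain, and aspartate (D) stands in for a phosphorylated serine or threonine. Residues are numbered within the mature histone.

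Barcodes of 354 among the 422 named strains were found in the series. Kept were the 347 that averaged 10 counts or more over all 20 libraries. They were the wild type, 46 strains with a tail deletion, 3 with several substitutions, and 297 with a single one (172 in H3 and 125 in H4). Every strain is known in these data only through its barcodes, and those of the strains to which the results below return most often are given here, 5′ to 3′ as listed in the deposited files. All letters are in capitals because every base identifies the strain. They are the 3 largest rises and the 3 largest falls among strains that passed the test below, with sides that did not overlap and with both barcodes changed in the same direction, an H3 tail-tip strain and an acetylation-site strain that moved in opposite directions in the 2 fractions, and the wild type.
H3G90A up: CACTCGACGCAAGGTTTATA
H3G90A down: CGCGACATCATAGCAACTTA
H3E105Q up: AAATTGGTCGTAATGCGTCG
H3E105Q down: ACGGACCTTGTACGCGATCT
H4Y88F up: TAAGATACTTGCACACAGCC
H4Y88F down: AGTAATAGACCATCTCGACC
H3 lacking residues 4 to 15, up: TAGTGACTTAGACCCTCCGT
H3 lacking residues 4 to 15, down: TATACTTGCGTAACGGGCCG
H3 lacking residues 13 to 24, up: CATGTTAGGGAACTTTAGGC
H3 lacking residues 13 to 24, down: CGGACTGGGACCTATATTCT
H3K79Q up: GCCGGACCTATAATCTAATC
H3K79Q down: GACCGTAGACTGTTCTGAAT
H3R2A up: AGGCATACTACACAGATTCC
H3R2A down: CTCTCGACGTAGGACTTCGT
H3K14Q up: GGCCCTAATCTAAAGCCAGA
H3K14Q down: GCGACCCTATAATTCTTGAC
wild type up: TTGCTTTGAGGACGTCCCAC
wild type down: CCACCTTGTCCTTAGGACAC

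The 2 barcodes of a strain were counted separately and their counts were added. The level of a strain is the log2 of that sum relative to the median strain of the same library, and its change is the mean late level minus the mean early level, given with the SD over 3 libraries. The level is relative, so that fewer cells of a strain and less amplified DNA per cell cannot be told apart. A strain passed the test where edgeR's quasi-likelihood test gave a Benjamini-Hochberg adjusted p under 0.05 over the 347 strains. The log2 fold changes quoted with a standard error (SE) are from that fit. The 6 libraries held 140788 to 182748 counts, of which 11.6% to 16.3% fell on 65 barcode pairs with no strain name in the deposited barcode table. The down barcode gave 45173 counts at day 24 beside 95615 from the up barcode. Amplified reads are not independent molecules, and the depth covers counting error only.

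The late libraries were near copies of one another, while the early ones were not. The SD, across the 347 strains, of the difference in level between 2 libraries was 0.24 to 0.30 among days 24, 34 and 44. It was 0.39 between days 2 and 3, but 0.59 and 0.60 between day 1 and those days. Day 1 stood about as close to the late libraries (0.54 to 0.60), which in turn differed from days 2 and 3 by 0.72 to 0.74. For a single strain the median SD over 3 libraries was 0.105 on the late side and 0.236 on the early side, and 287 of the 347 strains varied less late than early. Results below are therefore also given without day 1.

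**Figure D1:**
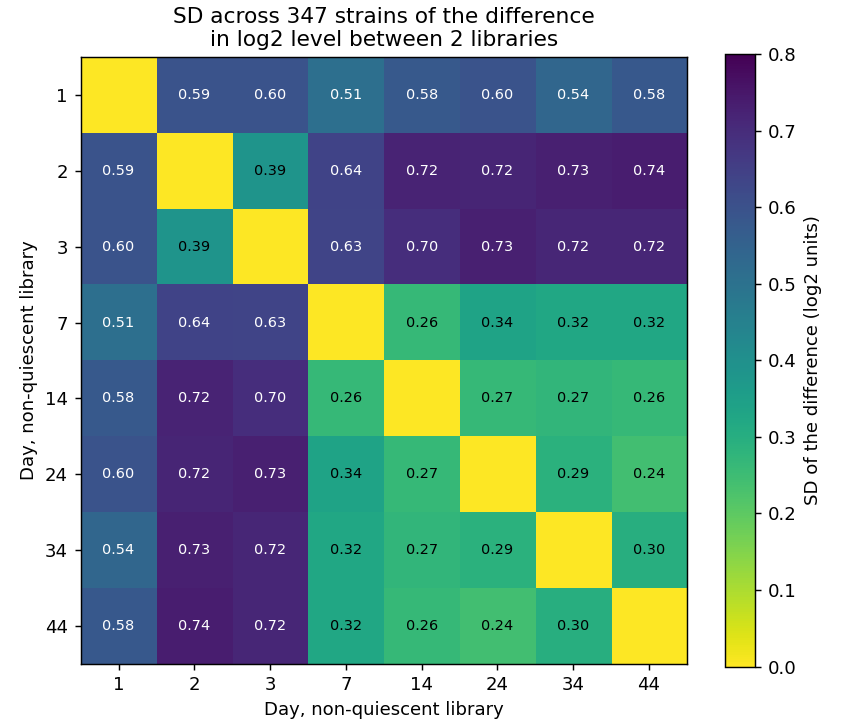
Each cell gives the SD across 347 strains of the difference in log2 level between a pair of non-quiescent libraries (both axes: day of the library; colour and number: SD in log2 units, 0 on the diagonal). Days 24, 34 and 44 form a block at 0.24 to 0.30 with days 7 and 14 beside it, while day 1 lies 0.59 and 0.60 from days 2 and 3.

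The fraction labels of the first days also bear on the comparison. Each late non-quiescent library was set against the early libraries of both fractions. The Pearson correlation of levels across strains was 0.950 to 0.966 with the quiescent libraries of days 1, 2 and 3, and 0.908 to 0.955 with the non-quiescent libraries of the same days. The pair of day 5, which enters no comparison of early with late, ran across the labels. Non-quiescent day 5 correlated at 0.984 with quiescent day 3 and at 0.896 with non-quiescent day 3. Quiescent day 5 correlated at 0.974 with non-quiescent day 3 and at 0.908 with quiescent day 3. Other days were mixed. Quiescent day 7 ran with the labels, at 0.92 with quiescent day 3 and 0.859 with non-quiescent day 3. Non-quiescent day 7 ran across them, at 0.965 with quiescent day 3 and 0.941 with non-quiescent day 3. Non-quiescent day 14 did too (0.963 and 0.926), while quiescent day 14 stood equally close to both (0.835 each). Quiescent day 24 correlated at 0.842 with quiescent day 1 and at 0.741 with non-quiescent day 1. Against day 3 its order turned, at 0.737 with the quiescent and 0.757 with the non-quiescent library. Whether the fractions of any day were exchanged was not tested, and the groups follow the labels throughout.

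Between the late and the early libraries 77 strains passed the test, 22.2% of the 347 (145 had an unadjusted p under 0.05). Of these 42 were higher late (12.1%) and 35 were lower late (10.1%). Scaled to library totals in place of the trimmed mean of log ratios, the split was 65 higher and 28 lower, and the median of edgeR's log2 fold change over all strains was 0.11 rather than 0.02. All 3 late libraries lay above all 3 early libraries in 70 strains (20.2%) and below them in 99 strains (28.5%), and 76 of the 77 strains that passed had sides that did not overlap. Changes were modest. The SD of the change over strains was 0.58 on the log2 scale and the median absolute change 0.32, with 17 strains over 2-fold higher and 9 over 2-fold lower. The change of the up barcode alone and that of the down barcode alone correlated across 342 strains with counts on both (Pearson's r 0.859, a description over strains that share libraries). Both had the same sign in 290 of these 342 strains, and in 76 of 76 strains that passed and had both barcodes. The strains that passed were chosen on the sum of the same counts, so their agreement is not independent of the test. The wild type held its level, at 1.94 ± 0.05 late and 2.06 ± 0.065 early (SD, n = 3 each; edgeR log2 fold change -0.04, SE 0.09, adjusted p = 0.794). It had 1121, 1208 and 1334 counts at days 24, 34 and 44, against 1244, 1395 and 1142 counts at days 1, 2 and 3, and the change of 192 strains lay above that of the wild type and that of 154 below it.

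How many strains passed depended on single libraries. Without day 1 there were 170, of which 86 were higher (24.8%) and 84 lower (24.2%), and all 77 strains were among them. Without day 2 there were 55 and without day 3 there were 47. Leaving out a late library left 8 strains without day 24, 20 without day 34 and 10 without day 44. The 8 strains that passed in each of these 6 fits were H3G90A, H4 lacking residues 9 to 12, H3Q76E, H4Y51F, H4N25A, H3K37Q and H3R49K, all higher late, and H3E94Q, lower late. All 77 kept their direction in each of the 6 fits.

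Among strains that were higher late, the steepest was H3G90A, which changes a glycine of the second H3 helix. It had 155, 195 and 177 counts at days 24, 34 and 44, against 44, 25 and 29 counts at days 1, 2 and 3. All late libraries were far above all early ones, and its level was -0.86 ± 0.20 late and -3.25 ± 0.43 early (SD, n = 3 each; edgeR log2 fold change 2.43, SE 0.26, adjusted p = 0.0018). H3E105Q, also in the second H3 helix, had 132, 157 and 245 counts late, against 87, 54 and 58 counts early (log2 fold change 1.40, SE 0.25, edgeR adjusted p = 0.012). H4Y88F, at a tyrosine of the third H4 helix, had 50, 38 and 62 counts late, against 29, 17 and 13 counts early (1.35, SE 0.35, edgeR adjusted p = 0.031). Neither H3E105Q nor H4Y88F overlapped between sides, though the lowest late and the highest early count of H4Y88F were only 38 and 29. H4K59Q, which mimics acetylation of a lysine in the second H4 helix, had 461, 482 and 491 counts late, against 274, 179 and 156 counts early (1.25, SE 0.19, edgeR adjusted p = 0.0062). Without day 24, H4K59Q did not pass, nor did H3E105Q without day 24 or without day 44, and H4Y88F passed in no fit that left out a late library.

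Where the H3 tail leaves the nucleosome core, passing between the 2 turns of DNA, strains differed among themselves. The stretch of residues 33 to 42 was singled out after the values were seen. Of its 17 single substitutions 5 were higher late (29.4%, beside 12.1% of all strains) and 1 was lower (beside 10.1%). The other 11 did not pass, and the median change was -0.08. Of those 11, 8 had a change below 0. H3R40A had 30, 28 and 30 counts late, against 9, 16 and 14 counts early (edgeR log2 fold change 1.18, SE 0.32, adjusted p = 0.038). H3H39A rose by 1.02 in level, H3K37Q by 0.84 and H3K37A by 0.74, and all of them passed the test. H3K36Q rose as well, with 189, 142 and 203 counts late, against 84, 113 and 67 counts early (1.03, SE 0.21, edgeR adjusted p = 0.015). Lysine 36 is methylated by Set2, and its other substitutions did not pass (H3K36A changed by 0.15 and H3K36R by -0.25, edgeR adjusted p = 0.61 and 0.53). The deletion of H3 residues 33 to 36 passed with a change of 0.92, while H3V35A, at a residue within it, was lower late with a change of -0.73. Further on, H3R49K, at an arginine that reaches into the minor groove of DNA, had 340, 348 and 403 counts late, against 177, 238 and 185 counts early (0.87, SE 0.12, edgeR adjusted p = 0.0048). Fits without a late library lost H3R40A, H3H39A, H3K37A and the deletion of residues 33 to 36 each time, and H3K36Q without day 24 or day 44.

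**Figure D2:**
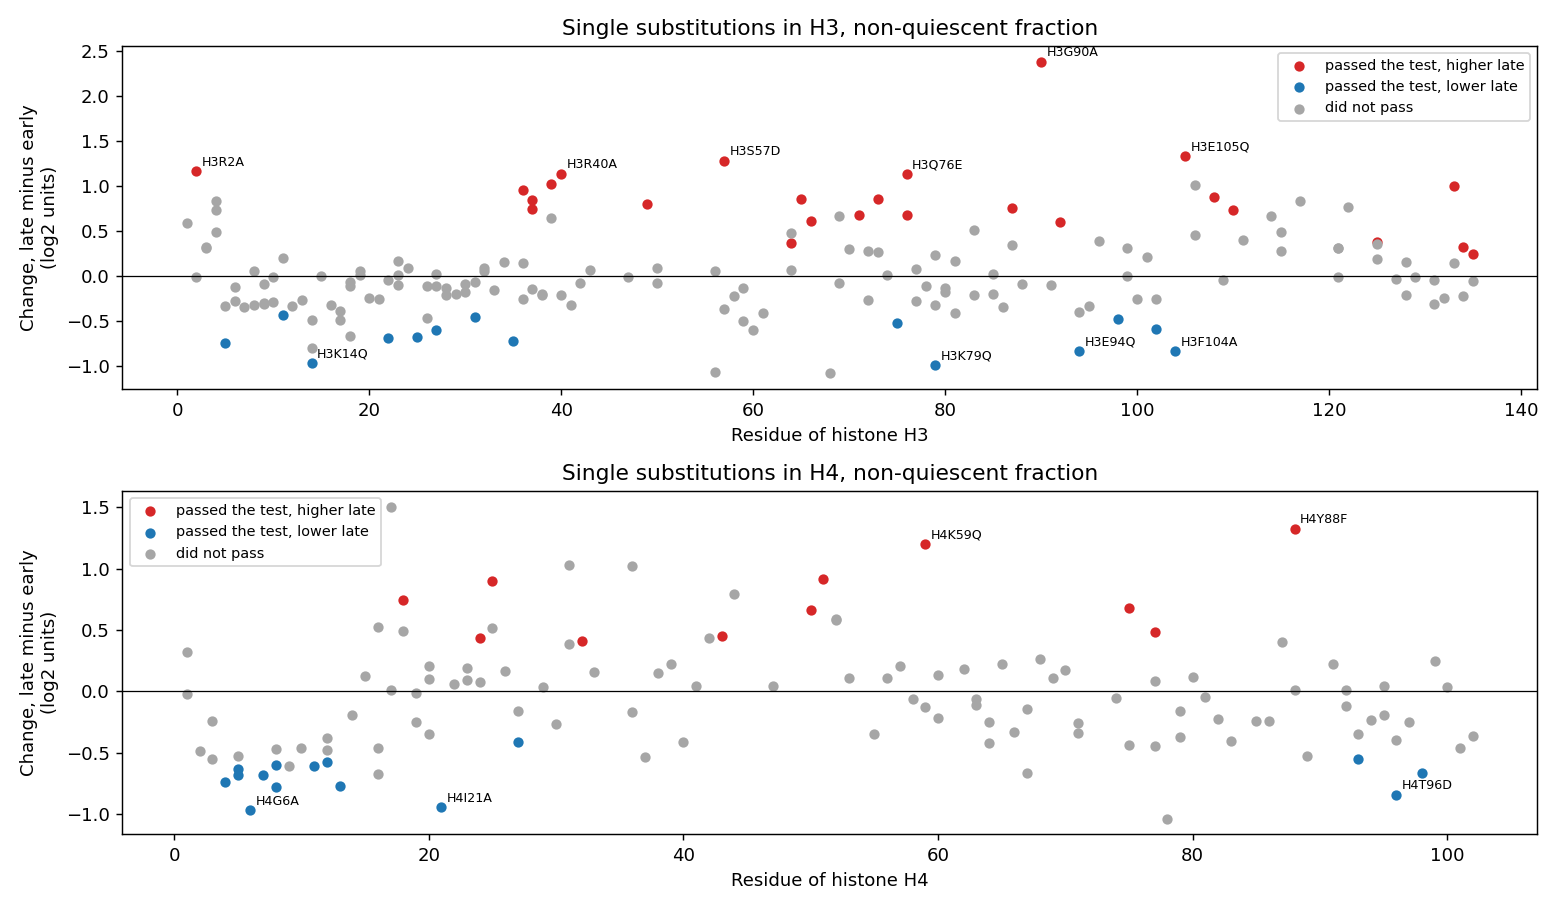
The change of each single substitution in the non-quiescent fraction (vertical axis: late minus early mean level, log2 units) is plotted by residue for H3 (above) and H4 (below). Points are strains, coloured by whether they passed edgeR's test. Strains that were lower late crowd H4 residues 4 to 13, where 10 passed, while those higher late are spread through the folded part of H3, led by H3G90A at 2.39.

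The first helix of H3 held the most rises of any tail, helix or loop examined. Of its 20 kept substitutions 7 were higher late and 1 lower (35% and 5%, beside 12.1% and 10.1% of all strains). The median change was 0.29 beside -0.06 over all kept strains. H3Q76E had 440, 543 and 598 counts late, against 246, 236 and 200 counts early. The lowest late library was well above the highest early one (edgeR log2 fold change 1.21, SE 0.10, adjusted p = 0.00057). H3Q76A at the same residue also passed, with a change of 0.67. The others were H3E73A (0.86), H3L65A (0.85), H3V71A (0.68), H3P66A (0.61) and H3K64R (0.37), and the one fall was H3A75S (-0.53). H3Q68A had 15, 17 and 28 counts late, against 68, 21 and 41 counts early, and its sides overlapped (edgeR adjusted p = 0.10). Without day 1 the helix had 13 rises and 1 fall, and without any one late library 1 rise, H3Q76E, and 0 falls.

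The second helix of H3 went both ways, with 6 rises and 4 falls among 29 substitutions (20.7% and 13.8%, beside 12.1% and 10.1% of all strains). Beside H3G90A and H3E105Q, H3N108A rose by 0.88, H3S87D by 0.75, H3A110S by 0.73 and H3L92A by 0.60. Falling were H3E94Q, H3F104A, H3S102D (-0.59) and H3A98S (-0.48). H3E94Q had 453, 505 and 625 counts late, against 892, 914 and 862 counts early, a tight pair of groups (edgeR log2 fold change -0.76, SE 0.09, adjusted p = 0.0019). H3F104A, which removes a buried ring, had 104, 142 and 134 counts late, against 291, 190 and 175 counts early (-0.78, SE 0.22, edgeR adjusted p = 0.038). From the second loop of H3 to its C-terminus 4 of 23 substitutions rose and 0 fell (17.4% and 0%, beside 12.1% and 10.1%). The rises were H3E133Q (1.00), H3K125A (0.37), H3R134A (0.32) and H3S135D (0.24). Without day 1 the second helix had 9 rises and 7 falls and the C-terminal part 8 rises, and without day 24 the numbers were 1 rise and 1 fall, and 0. Just before the first helix, H3S57D rose although counts were low, at 47, 38 and 60 late, against 23, 12 and 23 early (1.30, SE 0.35, edgeR adjusted p = 0.037). Its partner H3S57A changed by -0.37 and did not pass, and the gap of 1.66 between them was the widest between substitutions of 1 residue. At the neighbouring lysine 56, acetylated by Rtt109 on newly made H3, H3K56Q had 71, 72 and 83 counts late, against 121, 52 and 51 counts early (edgeR adjusted p = 0.97). H3K56A had at most 2 counts in each of the 6 libraries.

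Alanine replaced a buried hydrophobic residue in 32 strains of both histones. Of these 5 were higher late (H3L65A, H3V71A, H4I50A, H3L92A and H4V43A; 15.6%, beside 12.1% of all strains) and 1 lower (H3F104A; 3.12%, beside 10.1%), with a median of 0.10. Without day 1 there were 12 and 1, and without any one late library 0 of either. In H4 the first helix had 1 of 12 strains higher (8.33%), the first loop 1 of 4 (25%) and the second helix 4 of 30 (13.3%). The second loop had 1 of 8 (12.5%) and the third helix 1 of 13 (7.69%), beside 12.1% of all strains. Of those parts, the third helix alone held a fall (1 of 13, 7.69%, beside 10.1% of all strains). This was H4Q93A, with 213, 219 and 258 counts late, against 327, 340 and 293 counts early (edgeR log2 fold change -0.47, SE 0.10, adjusted p = 0.016). H4Q93A passed in no fit that left out a late library. H4Y51F, at a tyrosine early in the second H4 helix, had 304, 315 and 441 counts late, against 168, 193 and 167 counts early (1.00, SE 0.12, edgeR adjusted p = 0.0023). At the C-terminus of H4, which docks onto histone H2A, 2 of 11 strains were lower late (18.2%, beside 10.1% of all strains). H4T96D had 318, 446 and 459 counts late, against 665, 655 and 735 counts early (-0.76, SE 0.14, edgeR adjusted p = 0.012), and H4Y98F changed by -0.66. In the fit without day 1 it had 2 rises and 5 falls, and without day 24 or day 44 it had 0 of either.

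The N-terminal tail of H4 held the most falls of those stretches. Of its 41 substitutions 11 were lower late and 2 higher (26.8% and 4.88%, beside 10.1% and 12.1% of all strains). The median change was -0.38. The falls lay at residues 4 to 13 (H4G4A, H4K5Q, H4K5R, H4G6A, H4G7A, H4K8Q, H4K8R, H4G11A, H4K12R and H4G13A) and at residue 21. H4G6A had 632, 923 and 1143 counts late, against 1215, 1731 and 2033 counts early. All late counts were below all early ones, but the spread within each side was wide (edgeR log2 fold change -0.91, SE 0.23, adjusted p = 0.031). H4I21A had 530, 692 and 743 counts late, against 1261, 1079 and 1221 counts early (-0.87, SE 0.13, edgeR adjusted p = 0.0062). Of the 35 strains that were lower late 26 had an early level above the median strain, while of the 42 that were higher late 34 had an early level below it. A lean of this kind is partly built in, since the early level is subtracted in the change (Pearson's r -0.324 over all kept strains). It was not tested. Without day 1 the H4 tail had 7 rises and 22 falls. The falls in this tail were 7 without day 2, 5 without day 3, 0 without day 24, 2 without day 34 and 1 without day 44.

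Lysines of both tails that are acetylated in yeast (H3 residues 9, 14, 18, 23 and 27, and H4 residues 5, 8, 12 and 16) leaned downward when substituted singly. Of 27 strains 7 were lower late (25.9%, beside 10.1% of all strains) and 0 higher (beside 12.1%) by edgeR. At an unadjusted p under 0.05 the numbers were 14 and 1. In 23 strains the change was below 0, and the median was -0.47. By comparison 193 of all 347 strains had a change below 0. Strains of lysine 23 changed little (H3K23A 0.16, H3K23Q 0.01 and H3K23R -0.10). So did some at other lysines, such as H3K27R (0.02), H3K18A (-0.06) and H3K9Q (-0.09). None of these strains passed. H3K14Q, at the main target of the acetyltransferase Gcn5, had 140, 121 and 194 counts late, against 227, 321 and 289 counts early. Its sides did not overlap (edgeR log2 fold change -0.89, SE 0.18, adjusted p = 0.015). H3K14R had 453, 459 and 639 counts late, against 503, 1121 and 1075 counts early, with day 1 among the late values, and it passed only without that day (edgeR adjusted p = 0.068 with it and 0.00012 without it). In H4 the pair H4K5Q and H4K5R changed by -0.63 and -0.68, and the pair H4K8Q and H4K8R by -0.78 and -0.60, and all 4 passed, so that the acetyl mimic and the unmodified mimic both fell. Without day 1 the group had 16 falls and 0 rises. Without day 2 the falls were 6, without day 3 they were 3, and without any one late library they were 0.

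Strains at H4 lysine 16, which is deacetylated by Sir2 and bound in its unmodified form by the silencing protein Sir3, were not uniform. H4K16A had 76, 70 and 125 counts late, against 41, 78 and 60 counts early (change 0.52, edgeR adjusted p = 0.16). H4K16Q had 424, 443 and 723 counts late, against 558, 759 and 713 counts early (change -0.46, edgeR adjusted p = 0.13). H4K16R had 825, 991 and 1315 counts late, against 1161, 1748 and 1841 counts early (change -0.67, edgeR adjusted p = 0.059). None passed, but H4K16Q and H4K16R did without day 1 (adjusted p = 0.019 and 0.0024). The neighbouring H4H18Q rose, with 306, 291 and 488 counts late, against 173, 221 and 206 counts early (log2 fold change 0.84, SE 0.17, edgeR adjusted p = 0.015; it did not pass without day 24 or day 44). H4H18A had 272, 250 and 486 counts late, against 174, 246 and 236 counts early, and did not pass (edgeR adjusted p = 0.082). H4N25A had 455, 501 and 552 counts late, against 319, 255 and 203 counts early (0.97, SE 0.14, edgeR adjusted p = 0.0048). The study named a set of Sir3 contact residues with the quiescent libraries of this culture in view, so that the set is not independent of these data. Of its 10 strains H4H18Q and H4N25A were the 2 that rose and 0 fell (20% and 0%, beside 12.1% and 10.1% of all strains). The median was 0.28, and without day 1 there were 3 rises and 2 falls. At the study's other surface residue, H3E50, H3E50A changed by 0.09 and H3E50Q by -0.08, and neither passed.

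Of the 3 strains with several lysines changed at once, 1 was higher late and 2 were lower. In the strain with glutamine at H4 lysines 5, 8, 12 and 16, counts were 149, 162 and 186 late, against 31, 27 and 60 early (level change 2.09, edgeR log2 fold change 2.05, SE 0.34, adjusted p = 0.0085). This rose while the single H4K5Q and H4K8Q fell, but it rests on the up barcode alone, and it did not pass without day 24 or day 44. With glutamine at H3 lysines 4, 9, 14 and 18 the strain had 158, 143 and 198 counts late, against 205, 399 and 272 counts early (-0.80, SE 0.22, edgeR adjusted p = 0.038). With arginine at the same 4 lysines it had 33, 24 and 29 counts late, against 33, 242 and 101 counts early (-2.08, SE 0.63, edgeR adjusted p = 0.048). Its sides touched at 33 counts, since day 1 was as low as the late libraries. Neither of these H3 strains passed in a fit that left out a late library.

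Deletions in the H3 tail spanned the widest range. Of 31, 2 were higher late and 4 lower (6.45% and 12.9%, beside 12.1% and 10.1% of all strains). The strain without H3 residues 4 to 15 showed the largest fall of all strains, at 14, 9 and 12 counts late, against 50, 346 and 105 counts early. The late counts were all below the lowest early one, but days 1, 2 and 3 differed widely among themselves (level -4.79 ± 0.36 late and -1.30 ± 1.38 early, SD, n = 3 each; edgeR log2 fold change -3.78, SE 0.72, adjusted p = 0.015). The strain without H3 residues 13 to 24 had 12, 13 and 9 counts late, against 23, 61 and 48 counts early (-1.93, SE 0.44, edgeR adjusted p = 0.020). The deletions of residues 13 to 16 and of residues 17 to 20 fell by 0.62 and 0.74. Of the 11 kept deletions that removed residue 14, 10 had a change below 0 and 3 passed as lower, with a median of -0.81. The deletion of residues 5 to 20, the only exception, had very few counts (level -8.57 early and -8.11 late). That of residues 13 to 32 did too (-5.98 and -7.31), so the signs of both say little. Of the 20 others 11 were below 0 and 1 passed as lower, with a median of -0.04. This split was chosen after the values were seen and has no test. At the other end, the strain without residues 1 to 4 had 309, 376 and 373 counts late, against 242, 148 and 112 counts early (1.09, SE 0.24, edgeR adjusted p = 0.018), and it too passed only in the fit without day 1 among those with a library left out. The fit without day 1 gave the H3 deletions 2 rises and 13 falls, without day 2 there were 1 and 1, without day 3 there were 0 and 1, and without any one late library 0 of either.

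Of the 15 deletions in the H4 tail 3 were higher late and 0 lower (20% and 0%, beside 12.1% and 10.1% of all strains). Their median change was 0.27. The deletion of H4 residues 9 to 12 had 202, 219 and 258 counts late, against 91, 98 and 71 counts early. Within each side the counts were close, and the sides lay far apart (level -0.50 ± 0.03 late and -1.81 ± 0.12 early, SD, n = 3 each; edgeR log2 fold change 1.39, SE 0.15, adjusted p = 0.0018). This is unlike the single substitutions of the same stretch, H4G11A and H4K12R, which changed by -0.61 and -0.57. The deletions of residues 17 to 24 and of residues 20 to 23 also passed, by 0.68 and 0.37. The fit without day 1 gave the H4 deletions 5 rises and 1 fall, without day 2 there were 2 rises, and without any one late library 1, the deletion of residues 9 to 12.

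**Figure D3:**
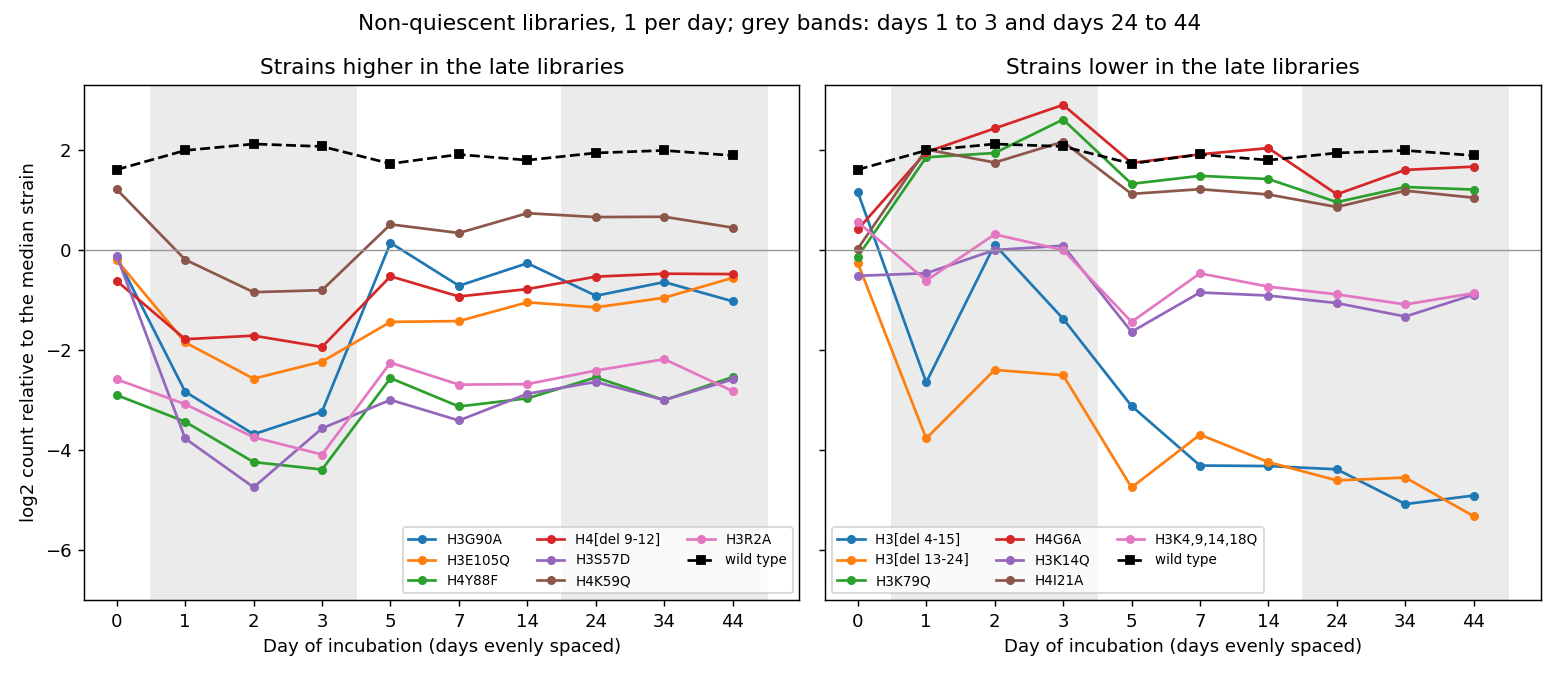
The log2 level relative to the median strain (vertical axis) of 7 strains with the largest rises (left) and 7 with the largest falls (right) is drawn over the 10 non-quiescent libraries (horizontal axis: day, evenly spaced), with the wild type dashed and the early and late days shaded. The ranking is among strains that passed the test, with sides that did not overlap and both barcodes changed in the same direction. Other strains with larger changes are not drawn. Days 7 and 14 are drawn between the shaded sides, H3G90A reaches -0.26 at day 14, above its late levels, and the library labelled day 5 correlated more with quiescent than with non-quiescent day 3.

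At the tip of the H3 tail, where Set1 methylates lysine 4, 1 of the 15 substitutions at residues 1 to 8 rose and 1 fell (6.67% each, beside 12.1% and 10.1% of all strains). H3R2A had 55, 67 and 51 counts late, against 37, 24 and 16 counts early (edgeR log2 fold change 1.19, SE 0.34, adjusted p = 0.041), and of the 6 fits with a library left out it passed only in that without day 1. H3K4A had 104, 134 and 107 counts late, against 108, 44 and 47 counts early. Day 1 lay among the late values, and H3K4A did not pass (edgeR adjusted p = 0.13), but it did without day 1 (adjusted p = 0.0032). H3K4Q changed by 0.73 and H3K4R by 0.48, with edgeR adjusted p = 0.18 and 0.086. H3Q5E fell, with 107, 136 and 141 counts late, against 229, 215 and 170 counts early (-0.67, SE 0.15, edgeR adjusted p = 0.020). For the tip as a whole, the fit without day 1 gave 6 rises and 3 falls, without day 2 and without day 3 only the fall of 1 strain was left, and without any one late library 0 of either.

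At lysine 79 of H3, on the nucleosome surface and methylated by Dot1, only the glutamine strain passed. H3K79Q had 567, 728 and 832 counts late, against 1131, 1231 and 1659 counts early (edgeR log2 fold change -0.94, SE 0.20, adjusted p = 0.015). H3K79R changed by -0.33 (edgeR adjusted p = 0.058) and H3K79A by 0.23 (edgeR adjusted p = 0.39). At threonine 11 of H3, a phosphorylation site, H3T11D had 379, 411 and 496 counts late, against 526, 588 and 530 counts early (-0.36, SE 0.08, edgeR adjusted p = 0.021). H3T11A had 416, 413 and 472 counts late, against 348, 369 and 358 counts early (edgeR adjusted p = 0.068). H3K79Q and H3T11D passed in no fit that left out a late library.

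The kind of replacement was compared within residues that had both, as a description. At 17 of 19 arginines the alanine strain changed more upward than the lysine strain, by a median of 0.37. The widest gaps were at H4R17 (H4R17A 1.50 and H4R17K 0.01), H3R40 (H3R40A 1.14 and H3R40K -0.21), H4R36 (H4R36A 1.02 and H4R36K -0.17) and H3R2 (H3R2A 1.17 and H3R2K -0.01). H4R17A did not pass, since its early counts of 14, 21 and 52 were scattered (62, 74 and 89 late, edgeR adjusted p = 0.073). H4R36A did not pass either. The alanine strains of these 4 residues began far below their lysine partners. In the same order, early levels were -3.60, -4.58, -4.50 and -3.64 for alanine, against -1.12, -0.37, -0.20 and 1.61 for lysine. Over all kept strains early level and change correlated at -0.324 (Pearson's r), though the change contains the early level. Whether the starting level had a part in these gaps was not tested. Among lysines the glutamine strain lay above the arginine strain at 14 of 21, by a median of 0.17, and the alanine strain above the arginine strain at 14 of 18. For serine and threonine the aspartate strain lay above the alanine strain at 5 of 18. Of the 26 strains with alanine for serine or threonine 0 passed in edgeR (5 had an unadjusted p under 0.05, beside 145 of all 347). Of 19 with an acidic residue 3 rose and 5 fell (15.8% and 26.3%, beside 12.1% and 10.1% of all strains). Without day 1 the alanine strains had 2 rises and 4 falls, and the acidic ones 4 and 7. The acidic ones had 0 of either without day 24 or day 44, and 0 and 2 without day 34. Over 121 pairs of substitutions at 1 residue, 4 pairs passed in the same direction (H3Q76, H3K37, H4K5 and H4K8) and 0 in opposite directions.

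The libraries of days 7 and 14 lie between the 2 sides in time. Over all 347 strains the SD of the difference was 0.22 between the late mean and that of days 7 and 14, and 0.54 between that of days 7 and 14 and the early mean. Tested with edgeR, 0 strains differed between the late libraries and days 7 and 14 (0%; 56 had an unadjusted p under 0.05), and 5 differed between days 7 and 14 and the early libraries (1.44%; 90 had an unadjusted p under 0.05). H3G90A had 181 and 299 counts at days 7 and 14, and its level at day 14 (-0.26) was above those of days 24, 34 and 44 (-0.91, -0.64 and -1.02). The H3 deletion of residues 4 to 15 had 15 and 18 counts at days 7 and 14, and H3E105Q had 111 and 174. In the 77 strains that passed, the level at days 7 and 14 had covered a median of 86.0% of the way from the early to the late mean, which is a description only, since the strains were chosen by those means. These 2 comparisons were added after the data had been seen. With 2 libraries at days 7 and 14, each had 3 residual degrees of freedom, against 4 for late with early. The coefficient of variation between libraries of a side, as estimated by edgeR, also differed. It was 0.06 for late with days 7 and 14, 0.18 for days 7 and 14 with early, and 0.15 for late with early. The numbers that passed are therefore not directly comparable. Days 7 and 14 against early was the comparison least able to find a difference.

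**Figure D4:**
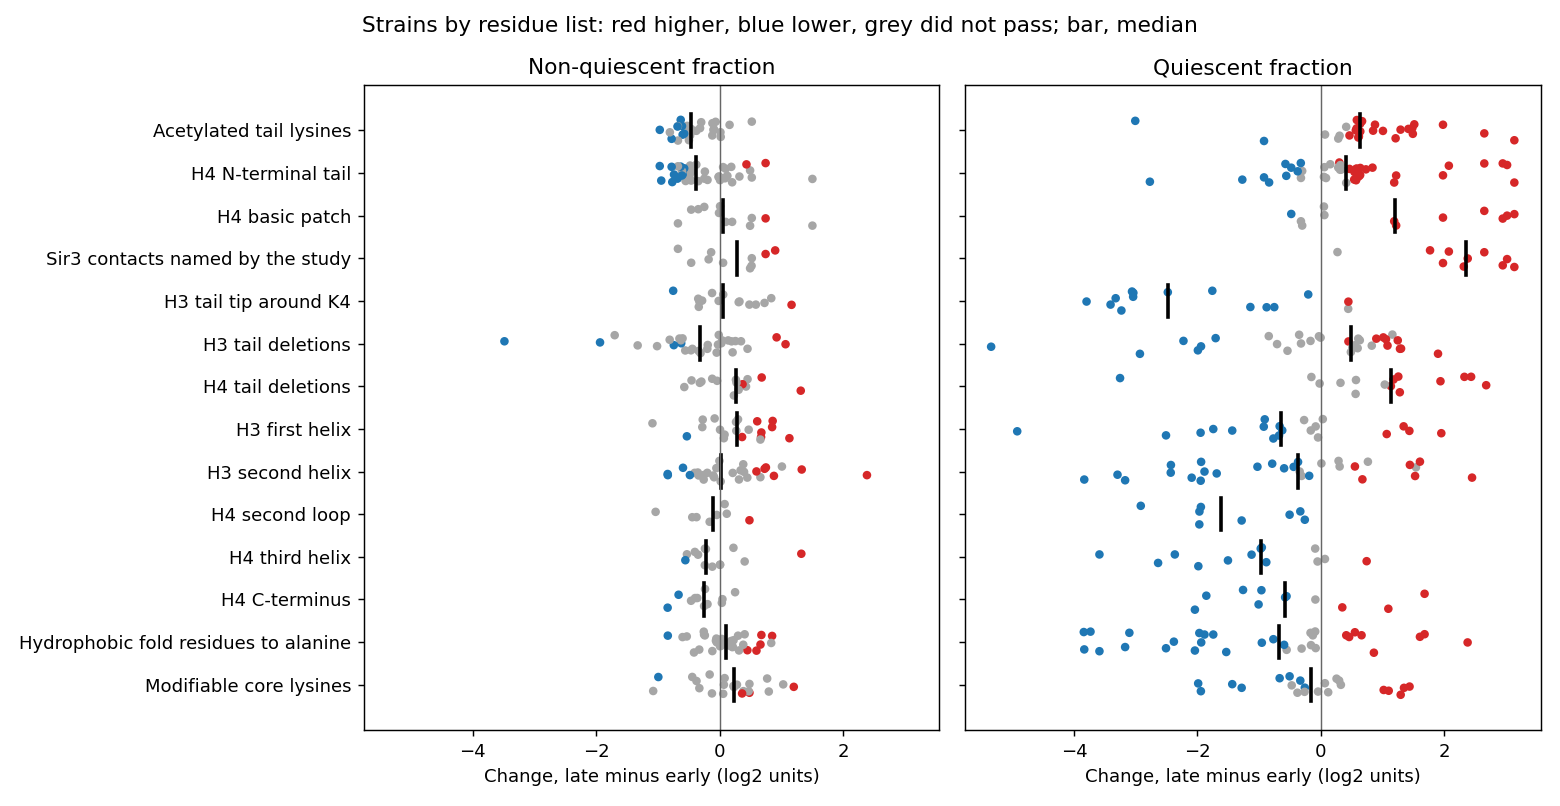
Each point is a strain, placed by its change in log2 level from early to late (horizontal axis) in the non-quiescent (left) and the quiescent fraction (right), by residue list (rows). Red and blue mark strains that passed as higher and lower, grey those that did not, and a bar the median. The non-quiescent values are bunched about 0, and the acetylated tail lysines have a median of -0.47 there and 0.64 in the quiescent fraction.

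The quiescent libraries of the same days changed far more. The SD of the change over the 347 strains was 0.58 in the non-quiescent fraction and 1.41 in the quiescent one, and the median absolute change 0.32 and 0.73. In the quiescent fraction 124 strains were higher late (35.7%) and 121 lower (34.9%), against 42 and 35 in the non-quiescent fraction. Changes in the 2 fractions ran nearly apart, with Pearson's r of 0.227 and Spearman's rho of 0.099 over strains, a description only, since the points share their libraries. The levels of the fractions themselves moved away from each other, since the SD of non-quiescent minus quiescent level was 1.23 late and 0.61 early. Of the strains that passed in both fractions, 28 went the same way and 18 opposite ways. An interaction term asked whether the change differed between fractions, and 226 strains passed. The non-quiescent change was above the quiescent one in 115 (33.1%) and below it in 111 (32%). The quiescent library of day 24 had 15710 down counts beside 110937 up counts. With day as a replicate block 210 strains passed, 208 of them among the 226.

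Of the 5 largest positive differences 4 were at the tip of the H3 tail, and the other was H3Q68A in the first helix. H3R2A, with its 55, 67 and 51 late and 37, 24 and 16 early counts in the non-quiescent fraction, had 10, 13 and 6 late and 86, 83 and 88 early counts in the quiescent fraction (interaction 4.30 on the log2 scale, SE 0.49, edgeR adjusted p = 2.7e-05). Late and early sides thus stood in opposite order in the 2 fractions. The H3 deletion of residues 1 to 4 changed by 1.07 in the non-quiescent and -2.93 in the quiescent fraction (interaction 4.04, SE 0.45, edgeR adjusted p = 2.6e-05). H3K4A changed by 0.84 and -3.04 (3.79, SE 0.56, edgeR adjusted p = 0.00013), H3T3D by 0.31 and -3.23 (3.71, SE 0.26, edgeR adjusted p = 1.2e-06) and H3Q68A by -1.09 and -4.92 (3.95, SE 1.03, edgeR adjusted p = 0.0054), non-quiescent first. Of the 15 tip substitutions 11 had a non-quiescent change above the quiescent one (beside 33.1% of all strains) and 1 below (beside 32%). In the non-quiescent fraction 1 of the 15 was lower late (beside 10.1% of all strains) and the median was 0.06. In the quiescent fraction 13 were lower (beside 34.9% of all strains) with a median of -2.48. H4K77R, H3R49K, H3S87D, H3V71A and H3L92A were further strains that rose in the non-quiescent and fell in the quiescent fraction.

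The opposite end was held by the H4 tail. H4K16Q changed by -0.46 in the non-quiescent and by 2.65 in the quiescent fraction, where it had 1334, 6129 and 2881 counts late, against 697, 411 and 482 early (interaction -2.95, SE 0.34, edgeR adjusted p = 2.7e-05). H4K16R and H4K16A followed (interaction -2.49 and -2.46, edgeR adjusted p = 3e-05 and 0.00014), then the H4 deletion of residues 9 to 16 (-2.34, SE 0.29, edgeR adjusted p = 3.9e-05) and H3T80D (-2.29, SE 0.31, edgeR adjusted p = 8.6e-05). Of the 27 strains at acetylated tail lysines 22 had a non-quiescent change below the quiescent one (beside 32% of all strains) and 1 above (beside 33.1%). The medians were -0.47 in the non-quiescent and 0.64 in the quiescent fraction, where 21 were higher late and 2 lower (beside 35.7% and 34.9% of all strains). H3K14Q, with 140, 121 and 194 late and 227, 321 and 289 early counts in the non-quiescent fraction, had 164, 510 and 307 late and 172, 99 and 114 early counts in the quiescent one (interaction -2.20, SE 0.29, edgeR adjusted p = 6.4e-05). H4K5R, H4K8R, H4G7A, H4G13A, H3T11D and H3E94Q likewise fell in the non-quiescent and rose in the quiescent fraction.

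Other strains had changes of the same sign in both fractions. H3G90A changed by 2.39 in the non-quiescent and 1.54 in the quiescent fraction, where its early counts ran from 26 to 211 and it did not pass (edgeR adjusted p = 0.20; interaction 1.53, SE 0.80, edgeR adjusted p = 0.11). H3Q76E changed by 1.13 and 1.07, non-quiescent first (interaction 0.25, SE 0.18, edgeR adjusted p = 0.25). The H3 deletion of residues 4 to 15 was lower late in both, with changes of -3.49 and -5.34 (interaction 1.50, SE 1.21, edgeR adjusted p = 0.29). The deletion of H4 residues 9 to 12 rose in both, by 1.32 and 2.33, and the rise was smaller in the non-quiescent fraction (interaction -0.83, SE 0.14, edgeR adjusted p = 0.00034). A difference that did not pass does not show that the changes were equal.

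**Figure D5:**
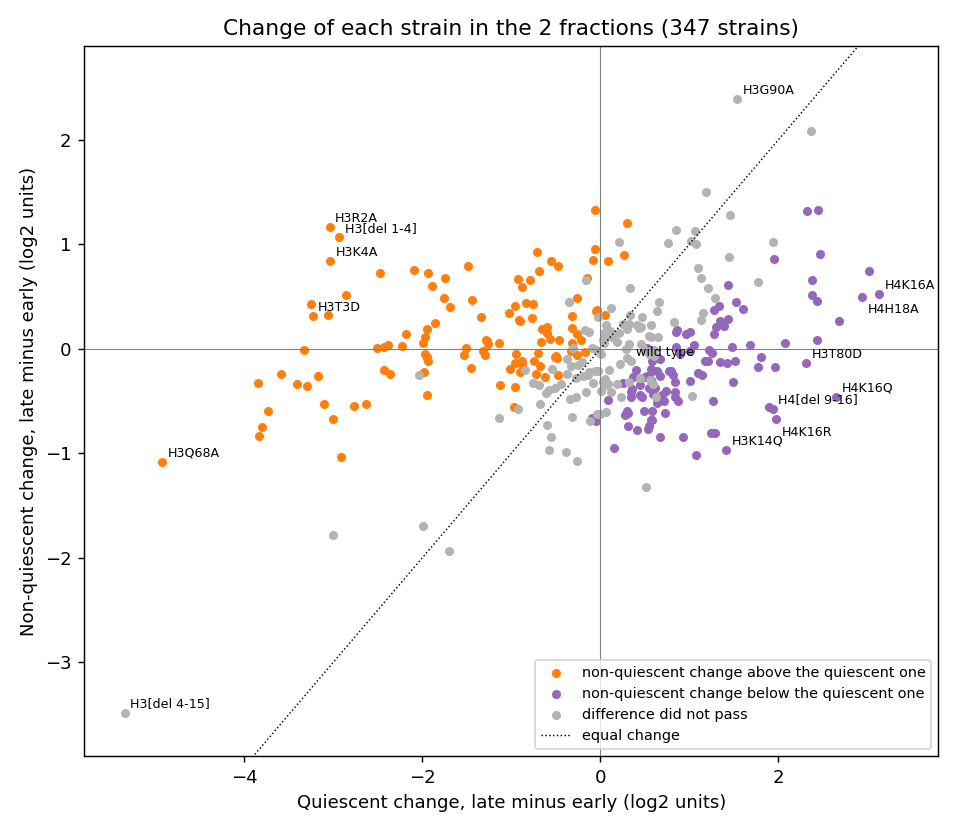
Each of 347 strains is placed by its change from early to late in the quiescent (horizontal axis) and the non-quiescent fraction (vertical axis), both in log2 units, with a dotted line of equal change. Orange and purple mark strains whose changes differed between fractions by the interaction test (115 above and 111 below), and the cloud is wider along the quiescent axis (SD 1.41) than along the non-quiescent one (SD 0.58).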

How the data were processed

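The deposited library files hold raw read counts per barcode, which the authors made with get_seqs_from_fastq and match_barcodes_to_strain from single-end reads, without molecular identifiers. Each listed 488 up and down barcode pairs, and 65 had no strain name and were left out of the tests. No genome build applies. The authors' log2 ratios of the quiescent fraction were not used here. Groups came from the fraction and day in the labels. The 2 barcodes of a strain were added, strains that averaged under 10 counts over 20 libraries were dropped, and 0.5 stood in for 0 on the log2 scale.

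Late was tested over early with the quasi-likelihood test of edgeR 4.0.16 in R 4.3.3 (trimmed mean of M-values (TMM) scaling, 4 residual degrees of freedom, adjusted p under 0.05), and the interaction over 12 libraries of both fractions. Serial days stood as the 3 samples of a side. DESeq2 1.42.0, limma 3.58.1, other scalings and filters, single barcodes, left-out libraries and day as a block were alternatives. The test was checked on simulated counts. Summaries and plots were made in Python 3.11.15 (pandas 2.3.3, numpy 2.4.6, matplotlib 3.10.9). The residue lists and the libraries compared were chosen with earlier results of these data known. Strains named were the 10 largest rises and 10 largest falls that passed without overlap and with both barcodes on the same side, the 5 largest interactions each way, the extremes of each list, strains with several substitutions, the wild type and those at H4K16, H4H18, H3E50, H3T11, H3K4, H3K36, H3K56 and H3K79. Others were named after their values were seen, to spell out counts.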

Additional observations from a re-analysis of the deposited data

Results flagged for a closer look

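In 226 strains the change from early to late differed between the non-quiescent and the quiescent fraction in edgeR's interaction test. Among them the non-quiescent change exceeded the quiescent one most in H3R2A (4.30 on the log2 scale), the H3 deletion of residues 1 to 4 (4.04), H3Q68A (3.95), H3K4A (3.79) and H3T3D (3.71). It fell short of the quiescent change most in H4K16Q (-2.95), H4K16R (-2.49), H4K16A (-2.46), the H4 deletion of residues 9 to 16 (-2.34) and H3T80D (-2.29).

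Barcode pairs with no strain name, which enter no comparison, held a mean of 15.8% of the counts in the late non-quiescent libraries, against 12.7% in the early ones (SD 0.50 and 1.09, n = 3 each). The late shares, 15.4%, 16.3% and 15.6%, lay above the early shares of 12.7%, 11.6% and 13.8%.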

How the results depend on the processing

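Both the numbers of strains that passed and the medians of residue groups moved. Against 77 in all, leaving out 1 library gave 8 to 170, against 42 higher it gave 7 to 86, and against 35 lower 1 to 84. The fits without a late library have fewer samples on the less variable side. What caused the shifts in these or in the other fits was not tested. Library totals gave 65 higher. DESeq2 gave 60 lower, wild-type scaling 22, and a fit over all 10 non-quiescent libraries 54. All 77 strains kept their direction in each of these fits. They also did with edgeR on DESeq2 size factors, with limma, on the up barcode alone and with no filter. On the down barcode 76 did, since the strain with glutamine at 4 H4 lysines has no counts there, and with a mean of at least 50 counts 74 were still tested and kept it. The median change in level over all strains was -0.06 with levels centred on the median strain, 0.13 with library totals and 0.06 with wild-type scaling. Medians of residue groups moved by more than the spread between libraries in 24 of 31 groups with library totals and changed sign in 8, and with wild-type scaling in 19 and 6. With library totals the H3 tail had 0.06 beside -0.12 and the H4 tail -0.19 beside -0.38. For the named strains 125 of 539 results under alternatives no longer passed, and 0 reversed.

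With day as a replicate block the interaction count was 210 beside 226. It was 220 with library totals, where 158 changes were above and 62 below, and 226 with wild-type scaling, where 150 were above and 76 below. A replicate number stands for the position of a day on its side, so no pairing of late with early libraries was possible. Strains with few counts, such as H3K56A, limit what these depths can show, as does 1 culture.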

Other observations

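Some residue groups were not described above. Over all kept strains 12.1% rose late and 10.1% fell. Among lysines of the folded core that can be modified, 3 of 22 strains rose (13.6%, H4K59Q, H3K64R and H4K77R). In that group 1 fell (4.55%, H3K79Q), and the median change was 0.23 beside -0.06 over all kept strains. On the surface whose mutation loosens silencing of the ribosomal DNA (LRS), 3 of 25 strains rose (12%) and 2 fell (8%). The median was -0.12 (0.07 with library totals and 0.00279 with wild-type scaling). H4R78K, at that surface, had 110, 108 and 139 counts late, against 117, 430 and 242 counts early, and did not pass (edgeR adjusted p = 0.068; 0.00052 without day 1). Native alanines changed to serine rose in 1 of 21 strains (H3A110S, 0.73) and fell in 3, led by H3A25S with 702, 761 and 820 counts late, against 1266, 1125 and 1096 counts early (edgeR adjusted p = 0.0085). Of 10 strains at phosphorylatable tail residues 1 fell, H3T11D, and 0 rose.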
